A study of Mus musculus with 20 samples.

Results

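The proteins of the cytosolic ribosome were followed in mouse macrophages with and without the bacterial lipid LPS. They were represented by every non-control probe named Rpl, Rps or Rplp with a number in the array files, which leaves out the mitochondrial ribosome and the S6 kinases. The rule found 181 of 39429 probes, for 79 genes: 49 of the large subunit and 30 of the small subunit. It used names only, so levels and responses were free to be tested. Messenger RNA was measured on 20 arrays with 2 channels each, and every array set LPS-treated against untreated macrophages of the same genotype and time. The cells were grown for 6 days from bone marrow of C57BL/6 mice in medium conditioned with M-CSF. By their labels they were wild-type, TRIF-KO, MyD88-KO or double-KO (both adapters missing), and they were kept in serum-free medium with or without 200 ng/mL LPS for 1, 2, 4, 8 or 16 h. Each genotype therefore had 5 arrays, 1 per time, and nothing in the labels ties an array to a separate animal or culture. The p-values measure only the spread between these samples. The untreated cells had been in serum-free medium as long as their LPS-treated partners.

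Myd88 and Ticam1 (the gene of TRIF) encode the 2 adapters through which the LPS receptor Tlr4 signals. The Ticam1 probe had a mean untreated log2 level of 7.28 ± 0.04 (SD, n = 5) in double-KO cells against 10.65 ± 0.19 (SD, n = 5) in wild-type cells. It was at 10.81 ± 0.28 (SD, n = 5) in the cells labelled TRIF-KO, so this probe does not bear out that label. The Myd88 probe was bright in all groups, at 14.41 ± 0.39 (SD, n = 5) in wild-type cells, 14 ± 0.13 (SD, n = 5) without both adapters and 14.1 ± 0.15 (SD, n = 4) in cells labelled MyD88-KO. Whether either probe lies outside the deleted part is not given in the sources used here, and then it would check nothing. The names TRIF-KO and MyD88-KO below are those of the labels.

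Ribosomal proteins are among the most abundant products of a cell. They are built into the small subunit, which decodes messenger RNA, and the large subunit, which joins amino acids. Their messages usually start with a run of pyrimidines, the TOP element, through which mTORC1 controls how well they are translated. Macrophages that meet LPS change the rate at which they make proteins, and several ribosomal proteins, among them Rpl13a and Rps3, are also known for tasks outside the ribosome.

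The probes on which the results turn are shown first. Coordinates are those of mm9 in the array files, with the strand given by their order. No genome was used, so exons were not annotated. Rpl24 belongs to the large subunit and carried the clearest gain with LPS time. The first sequence below is its probe A_55_P2004333 at chr16:55970228-55970287. The second is a stretch of 30 bases that its probes A_55_P1956938 at chr16:55971488-55971547 and A_55_P2059556 at chr16:55971494-55971553 share among 54 common bases, with the polyadenylation hexamer in capitals.
Rpl24 A_55_P2004333: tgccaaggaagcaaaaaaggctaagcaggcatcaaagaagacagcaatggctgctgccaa
Rpl24 A_55_P1956938: agcagagttggaAATAAAgctctatcttta
Rpl39l, a paralog of Rpl39 known mainly from germ cells, had 1 probe at chr16:10174657-10174716, of which 30 bases with the hexamer are shown.
Rpl39l A_55_P1969392: cagcagttcagtAATAAAtatgtgaaacct

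For Rps6, Rpl22 and Rps27a a dim and a bright probe of the same gene behaved differently, so both are shown. Rps6, the substrate of the S6 kinases, had its bright probe at chr4:86500807-86500748 and its dim probe 685 bases downstream at chr4:86500122-86500063. Rpl22 had its bright probe at chr4:151706515-151706574 and its dim probe 1497 bases downstream at chr4:151708012-151708071. Rps27a, which is made as a fusion with ubiquitin, had its bright probe at chr11:29445973-29445914 and its dim probe 2025 bases upstream at chr11:29447998-29447939. Of each dim probe, and of the bright Rpl22 probe, the first 30 bases are printed.
Rps6 bright, A_55_P1963817: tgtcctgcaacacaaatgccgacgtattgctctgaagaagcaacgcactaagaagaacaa
Rps6 dim, A_55_P2008567: tggtgtgtatcacaagttagcctgtgtagc
Rpl22 bright, A_55_P2015989: ggaggaagacgaggattaggacacattggt
Rpl22 dim, A_52_P391718: gctgtaaacaacattaaccctgggttgatt
Rps27a bright, A_55_P1976108: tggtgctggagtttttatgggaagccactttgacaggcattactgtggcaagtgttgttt
Rps27a dim, A_55_P2025173: aaagaaaccgagcgaacgagcaaatctggc

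Ribosomal protein genes have many processed copies in the genome, so a name does not always fix where a probe lies. Of the 181 probes, 11 probes of the 5 genes Rpl13, Rpl36, Rps27, Rps29 and Rps4x are placed by the files on another chromosome than the RefSeq gene. Within 1 chromosome, Rps2 had a probe at chr17:24857583-24857642 and another at chr17:42864841-42864900, printed here in that order. The Rpl14 probes A_55_P2070913 at chr9:120483487-120483546 and A_55_P2137461 at chr9:120483496-120483555 overlap by 51 bases with 1 difference, G45A, counted from 1 at the 5′ end of the first (capitals below). Reads of near-identical copies could not be told apart on any of these probes.
Rps2 A_55_P2048454: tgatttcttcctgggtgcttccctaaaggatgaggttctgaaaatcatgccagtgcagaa
Rps2 A_55_P2070347: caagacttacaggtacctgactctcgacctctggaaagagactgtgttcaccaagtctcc
Rpl14 A_55_P2070913: cacagaataataaaGgttctttttgacggt
Rpl14 A_55_P2137461: cacagaataataaaAgttctttttgacggt

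A probe was kept for the tests where it was well above background in a channel on at least 3 arrays, which held for 28388 of all 39429 probes. Of the ribosomal protein probes, 178 were kept, for 78 of the 79 genes, and 56 genes had more than 1 kept probe, up to 7. Among the 3 probes left out were both probes of Rpl10l, a paralog of Rpl10 known from testis, which were not well above background on any array. On each array between 57% and 70.5% of all spots, and between 97.4% and 98.4% of the 190 ribosomal protein spots, were well above background. In Cy5, 0 to 16 of these 190 spots were saturated per array, 29 probes were so on at least 1 array and none on more than 8, and in Cy3 none was saturated. All 11 macrophage markers were well above background on all 20 arrays. Their mean untreated log2 level ran from 14.99 to 15.14 in double-KO, below the 15.17 to 15.51 of wild-type, and from 15.19 to 15.41 in TRIF-KO and 15.03 to 15.57 in MyD88-KO samples. Of 20 markers of other cell types, 6 were above it on all arrays and 1 on none. Their mean log2 level ran from 7.85 to 8.04 in wild-type, 7.95 to 8.15 in double-KO, 7.89 to 8.18 in TRIF-KO and 8.13 to 8.33 in MyD88-KO samples. Camp, 1 of 4 markers of neutrophils and their precursors, was at a median of 10.92 in wild-type, 11.5 in double-KO, 11.56 in TRIF-KO and 12.79 in MyD88-KO samples. S100a8 had medians of 12.27, 11.61, 12.18 and 13.51 in the same order of groups, Elane 12.14, 13.35, 12.15 and 12.63, and Ngp 8.58, 8.76, 9.46 and 9.77. MyD88-KO was thus highest for 3 of the 4 and double-KO for Elane. The part of such cells in the results below was not tested, and in bulk RNA fewer cells of a type and less RNA per cell cannot be told apart.

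Ribosomal protein probes were among the brightest of the array. Their median untreated log2 intensity was 17.2, with the middle part between 16.4 and 17.7, against 9.21 for all kept probes. The median lay above 98.2% of all kept probes. Large subunit probes had a median of 17.1 and small subunit probes one of 17.3, while 100 kept probes of the mitochondrial ribosome had a median of 13. Single ribosomal protein probes ranged from 7.03 to 18.3. Of them, 152 probes were at a log2 level of 15 or more and are called bright here. The 26 below are called dim, and 4 lay within 0.5 of that cut. For 24 of the dim probes the gene also had a brighter kept probe on the same chromosome. The lowest kept probe was at 7.03, the Rps27a probe shown above. A probe's brightness depends on its sequence, so no gene's level was set against that of another.

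The ratios of LPS over untreated were small for most of these probes. On the wild-type arrays the median log2 ratio of LPS over untreated of the ribosomal protein probes was -0.00841 at 1 h, 0.0531 at 2 h, -0.0209 at 4 h, -0.263 at 8 h and -0.158 at 16 h. In TRIF-KO cells it was 0.057, 0.208, 0.0167, -0.19 and -0.00355 in the same order of times. In MyD88-KO cells it was 0.0972, -0.0485, 0.0508, -0.0815 and -0.205. In double-KO cells, which lack both adapters, it was 0.219, 0.159, 0.177, 0.123 and 0.146, above 0 on every array. The lowest double-KO array was above every wild-type, TRIF-KO and MyD88-KO array but TRIF-KO at 2 h. For 844 other probes of the same brightness the double-KO medians were 0.0578 to 0.0952, above 0 as well but lower than those of the ribosomal proteins on each of the 5 arrays. In wild-type, TRIF-KO and MyD88-KO cells these other probes were at -0.166, -0.133 and -0.0771 at 8 h. At 16 h they were at -0.0574, -0.017 and -0.0988.

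**Figure D1:**
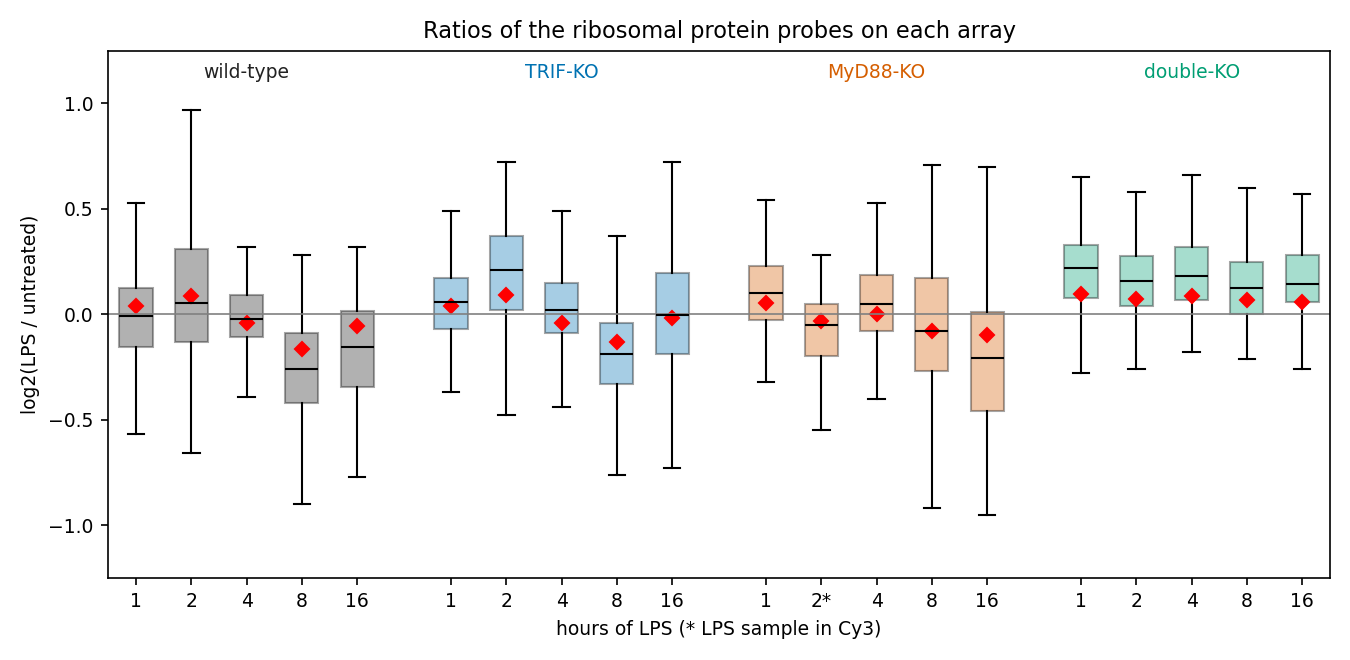
Log2 ratio of LPS over untreated (vertical axis) of the 178 ribosomal protein probes on each of the 20 arrays, by genotype and hours of LPS; boxes give the middle part of the probes, lines in them the median, whiskers the range without far points, and red diamonds the median of 844 other probes of the same brightness. The double-KO boxes have medians of 0.123 to 0.219, the wild-type boxes fall to -0.263 at 8 h, and the star marks the array with LPS in Cy3.

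Dye orientation was the same on all double-KO arrays. The LPS sample was labelled with Cy5 on 19 arrays and with Cy3 on 1, MyD88-KO at 2 h, whose ratio was turned round before use. Across the 178 probes, the ratio on that array had a Pearson correlation of -0.72 and a Spearman correlation of -0.76 with the mean double-KO ratio, while MyD88-KO at 1 h, with LPS in Cy5, had 0.79 by both. On the other arrays with LPS in Cy5 that were not double-KO, the Pearson values were 0.4 to 0.67. Over all kept probes the Pearson correlation was -0.21 on the turned array and 0.39 for MyD88-KO at 1 h. These are correlations across probes, which share their dyes and are no independent replicates. Of the 178 probes, 67 were above 0 on the turned array, and 131 had opposite signs there and in the double-KO mean. Of 123 probes above 0 on all double-KO arrays (69.1% of the ribosomal protein probes, against 15.6% of all kept probes), 98 were below 0 on the turned array. The counts of 131 and 98 were not made over all kept probes, so they are not read as particular to ribosomal proteins. For the double-KO mean, in which all 5 arrays had LPS in Cy5, a response to LPS and a dye difference cannot be told apart.

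**Figure D2:**
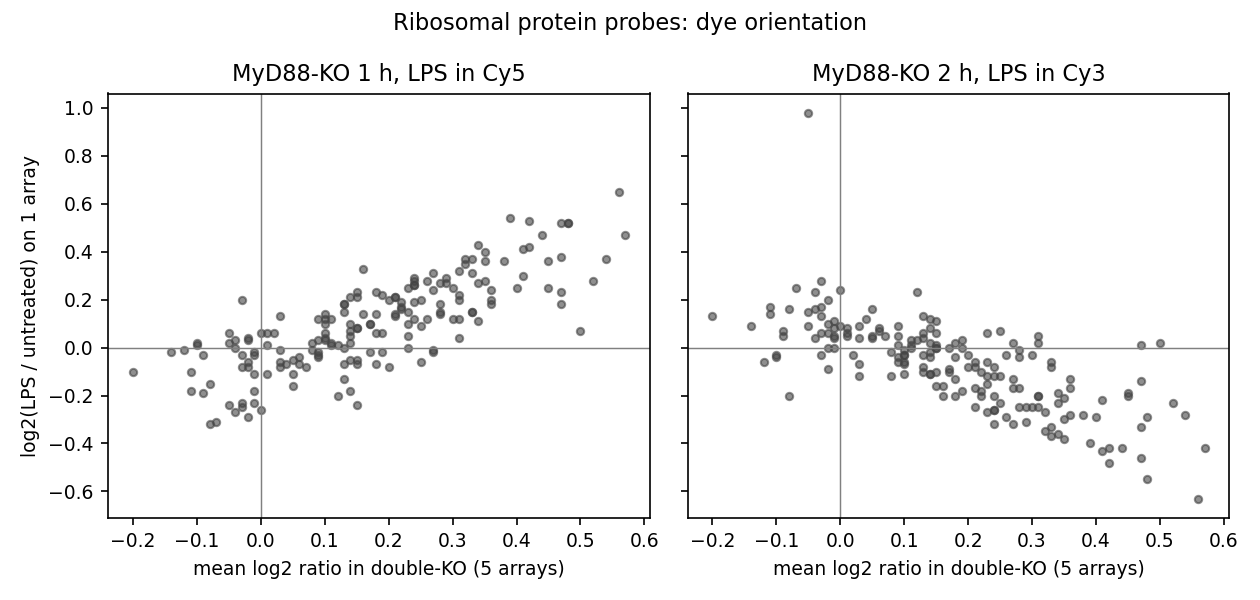
Each point is 1 of 178 ribosomal protein probes: mean log2 ratio of LPS over untreated in double-KO cells (horizontal axis, 5 arrays) against the log2 ratio on 1 MyD88-KO array (vertical axis). With LPS in Cy5 at 1 h the points climb from left to right (Pearson 0.79), and with LPS in Cy3 at 2 h they descend (Pearson -0.72).

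Mean responses were fitted over all 20 arrays with genotype and time point, by limma with Benjamini-Hochberg adjustment over all kept probes and a threshold of 0.05. In wild-type cells, 45 of the 178 probes were lower after LPS and 9 higher, where 19.3% of all kept probes were lower and 17% higher. The median over the ribosomal protein probes was -0.0673, against -0.00988 over all. The 45 lower calls fell on 29 genes, and in 5 genes every kept probe was lower. In TRIF-KO cells 25 were higher and 12 lower (13% and 15.9% of all probes), with a median of 0.0151. The higher calls were near the share of all kept probes and the lower calls below it. In MyD88-KO cells 9 were higher and 22 lower, both below the shares of all kept probes (17.1% and 18.9%), with a median of -0.0544. In double-KO cells 5 were higher and 0 lower, where limma called 0.159% of all kept probes higher and 0% lower. The fit gives a probe 1 estimate of the spread over all 20 arrays, although double-KO ratios often varied less. The dim Rpl22 probe had an SD of 0.08 in double-KO against 0.72, 0.76 and 0.77 in wild-type, TRIF-KO and MyD88-KO cells. The double-KO SE therefore also holds the spread of the other genotypes, and a small count does not measure how small the shift was. Of the 178 probes, 144 were above 0 in double-KO cells and 95 had an unadjusted p under 0.05, against 13976 and 1792 of all 28388 kept probes. A dye term can be fitted through the turned array alone. With it, 0 ribosomal protein probes were called in wild-type, TRIF-KO and double-KO and 1 in MyD88-KO cells, where at most 3.06% of all kept probes were called in either direction. With each array centred on its median in place of loess, the medians of wild-type, TRIF-KO and MyD88-KO cells were all positive, at 0.35, 0.34 and 0.289. Slides were told apart only by the scan time in the file headers, so arrays with the same scan time are called 1 slide here. With slide as a fixed block 0 probes were called in TRIF-KO, MyD88-KO and double-KO and 44 in wild-type cells. With scan day as a block 0 were called in MyD88-KO and double-KO cells. The wild-type count of 54 calls was 21 with slide as a random block, and 23, 27 or 33 without the wild-type array at 8, 2 or 16 h. The MyD88-KO count of 31 was 5, 10 or 20 without its array at 16, 8 or 4 h and 50 without the turned array. The TRIF-KO count of 37 was 18 to 21 without its array at 2, 4, 8 or 16 h, and the double-KO count ran from 0 to 28, the highest without the turned array.

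Rpl31, a large subunit protein at the exit of the peptide tunnel, was lower in wild-type cells on all 5 of its probes. Its probe A_55_P2001155 had -0.57, -0.44, -0.77 and -0.49 at 1, 4, 8 and 16 h, the 2 h spot being an outlier left out of the fit, and a mean of -0.51 (SE 0.10, limma adjusted p 0.00163). Rpl39 (A_55_P2182106) had -0.52, -0.82, -0.19, -0.69 and -0.38 over the 5 times and a mean of -0.52 (SE 0.10, adjusted p 0.00184). Every wild-type value of both probes was below 0. Other Rpl39 probes moved less, A_55_P1957291 at -0.2 (adjusted p 0.0268) and A_66_P126080 at -0.06, not called (adjusted p 0.684). Rpl36a (A_55_P2019019) had -0.64, 0.1, -0.45, -0.66 and -0.5 and a mean of -0.43 (SE 0.08, adjusted p 0.0017), but median centring turned it to 0.01. Rpl3, which lines the path to the catalytic centre, had -0.11, -0.42, -0.24, -0.88 and -0.71 on A_55_P2030802 (mean -0.47, SE 0.17, adjusted p 0.0405). The Rpl3 probe A_55_P2025023 was at -0.22 and not called (adjusted p 0.23). Among small subunit proteins Rps2, which lies at the entry of the messenger channel, had -0.27, -0.35, -0.57, -0.88 and -0.23 on A_55_P2070347 (mean -0.46, SE 0.11, adjusted p 0.00666). The Rps2 probe A_55_P2048454, placed elsewhere on the chromosome as given above, was at -0.28 and not called (adjusted p 0.0915). Rpl3 and Rps2 were lower in MyD88-KO cells as well, with the A_55_P2030802 probe of Rpl3 at -0.03, 0.07, -0.48, -0.86 and -1.79.

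The comparison with double-KO cells sets cells with adapters against cells labelled as lacking both. A dye effect that a probe shows equally on arrays of the same orientation cancels in it for wild-type and TRIF-KO cells. It does not fully cancel for MyD88-KO cells, as 1 of their 5 arrays, at 2 h, had LPS in Cy3. In wild-type cells 36 of the 178 probes had a lower ratio than in double-KO cells and 0 a higher one, where 6.2% of all kept probes were called lower and 6.53% higher. The median difference was -0.258 for the ribosomal proteins, -0.148 for other probes of the same brightness and -0.014 for all probes, and only 11 of the 178 were above 0. The calls were spread over both subunits, 24 of 113 large and 12 of 65 small subunit probes, and over 26 genes, of which 7 were lower by every kept probe. For 41 probes, all 5 wild-type ratios lay below all 5 double-KO ratios, which held for 4.45% of all kept probes. In MyD88-KO cells 14 were lower and 1 higher than in double-KO (4.57% and 6.14% of all), with a median of -0.228. In TRIF-KO cells 1 was lower and 1 higher (2.93% and 3.68% of all, 6.61% together), with a median of -0.173. For MyD88-KO and TRIF-KO cells the median difference of other probes of the same brightness is not given here. The 3 comparisons share the double-KO arrays, so they are no independent repeats of each other. A count of calls that differs between them does not show that the genotypes differ.

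The wild-type count against double-KO was 10 without the time point as a block, 9 with scan day as a block, and 0 with slide as a fixed or a random block, with the 2 groups fitted alone, or with median centring, while the median stayed negative in all 13 alternatives, from -0.517 to -0.184. With the fixed slide block 0% of all kept probes were called. By scan time, no slide held wild-type and double-KO arrays together: wild-type lay on slides 1 and 2, double-KO on slides 4 and 5. Without wild-type at 8 h the count was 6, without double-KO at 8 h it was 7, and without wild-type at 4 h, double-KO at 4 h or double-KO at 16 h it was 16, 15 or 17. The MyD88-KO count became 0 without the block, and the median was -0.252 for the 3 arrays of each genotype scanned on the same day and -0.31 for 3 MyD88-KO arrays against 1 double-KO array on slide 4.

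**Figure D3:**
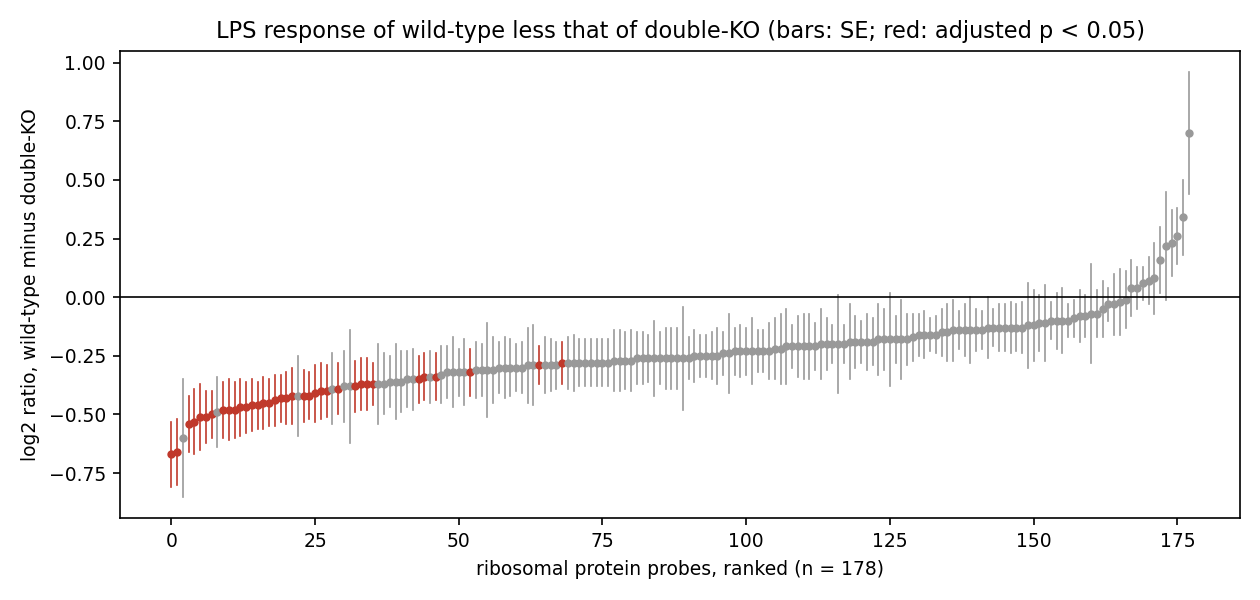
Difference of the log2 LPS ratio between wild-type and double-KO cells (vertical axis, bars are SE from the limma fit) for 178 ribosomal protein probes in order of that difference (horizontal axis). Most points lie below 0, with a median of -0.258, and the 36 red points passed adjusted p under 0.05.

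Rps26, a small subunit protein near the exit of the messenger channel, stood lowest in that comparison at -0.67 (SE 0.14, limma adjusted p 0.0105). Its ratios were -0.02, -0.66, 0.14, -0.32 and 0 in wild-type cells and 0.74, 0.35, 0.52, 0.39 and 0.5 in double-KO cells, with no overlap. In TRIF-KO cells they were 0.2, 0.3, 0.42, 0.13 and 0.46, which overlapped with both groups. Rpl39 followed on A_55_P2182106 at -0.66 (SE 0.14, adjusted p 0.0131), with double-KO values of 0.35, -0.07, 0.09, 0.03 and 0.32, all above its wild-type values given above. Its other probes had close means in wild-type and double-KO cells, -0.2 and -0.11 on A_55_P1957291 and -0.06 and -0.04 on A_66_P126080. Rpl12, a protein at the base of the stalk, had 0.02, -0.08, -0.1, -0.47 and -0.3 in wild-type and 0.53, 0.32, 0.35, 0.26 and 0.34 in double-KO cells (A_55_P1954907, difference -0.54, SE 0.12, adjusted p 0.0161). Its MyD88-KO values were 0.2, -0.28, -0.06, 0.02 and -0.53, with a difference of -0.49 (SE 0.12, adjusted p 0.0316). Rpl10, which is added last to the large subunit, had 0.13, 0.09, 0.12, -0.08 and -0.06 in wild-type and 0.63, 0.4, 0.66, 0.54 and 0.63 in double-KO cells (A_55_P2005081, difference -0.53, SE 0.14, adjusted p 0.0247). Rps23, a protein of the decoding centre, and another Rpl31 probe, A_55_P2038299, were both at -0.51 (adjusted p 0.0342 and 0.0117). Rpl41, the smallest ribosomal protein, was the single probe lower in TRIF-KO than in double-KO cells, at -0.39 (SE 0.10, adjusted p 0.0329), and it was lower in wild-type (-0.34) and MyD88-KO cells (-0.38) too. Its double-KO ratios were nearly constant at 0.23, 0.24, 0.26, 0.26 and 0.32, whereas in TRIF-KO cells they were 0.03, -0.02, -0.18, -0.3 and -0.16. The TRIF-KO call was lost with no replicate block (-0.39), slide as a fixed (-0.01) or random block (-0.35), scan day (-0.4), the scanner's ratio (-0.27), median centring (-0.57) or the 2 groups alone (-0.39). It was also lost without TRIF-KO at 1, 4, 8 or 16 h or double-KO at 4, 8 or 16 h (-0.41 to -0.34).

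Ribosomal protein ratios declined with the time of LPS in cells that kept an adapter. The slope over log2 time, fitted as 1 value for wild-type, TRIF-KO and MyD88-KO cells, was below 0 for 148 of the 178 probes and called lower for 45 and higher for 4 (9.84% and 7.96% of all kept probes). The median slope was -0.0595 per doubling of time, against -0.04 for other probes of the same brightness. A dye effect that stays the same on every array of a genotype cancels in a slope, but MyD88-KO holds the turned array at 2 h. With the dye term 45 were lower and 4 higher. Calls were made on 34 of 113 large and 11 of 65 small subunit probes, and in 12 genes every kept probe was lower. The 100 mitochondrial ribosomal probes had 23 higher and 2 lower slopes. The test of the slope against that of double-KO cells called 1 ribosomal protein probe, higher, and 0 lower (0.236% and 0.423% of all), with a median of -0.0501 and 19 unadjusted p under 0.05, against 2871 of all 28385 probes tested. A decline that differs from that of cells without an adapter was thus not shown for single probes. With median centring the slope calls fell to 4 and the median was 0.0369, and with the fixed slide block 5 were called while the median was -0.0697.

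Rpl3 showed the decline on both probes: A_55_P2025023 had 0.15, -0.13, -0.14, -0.69 and -0.29 in wild-type, 0.15, -0.01, -0.14, -0.61 and -0.04 in TRIF-KO and 0.03, -0.06, -0.23, -0.8 and -1.59 in MyD88-KO cells (slope -0.21, SE 0.05, limma adjusted p 0.00835). Rpl3 was low at 8 h in all 3 genotypes and lowest at 16 h in MyD88-KO cells, while double-KO values of 0.19, 0.05, 0.1, 0.05 and 0.05 had no such course. Rps21, of the small subunit, had 0, 0.11, -0.38, -0.75 and -0.97 in TRIF-KO cells (A_52_P740562, slope -0.2, SE 0.04, adjusted p 0.00379). Rpl10a (A_55_P2101906) had a slope of -0.17 (adjusted p 0.00802) and the dim Rpl27a probe A_51_P132459 one of -0.18 (adjusted p 0.012). Rpl13 and Rpl7a each had a lower slope on all 4 of their probes. The count ran from 38 to 59 when each array was left out in turn.

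Rpl24 went against the group. All 3 of its probes were higher after LPS in wild-type (0.81, 0.55 and 0.54), TRIF-KO (0.69, 0.62 and 0.43) and MyD88-KO cells (0.44, 0.43 and 0.37, in the order A_55_P1956938, A_55_P2004333, A_55_P2059556), and all 3 had a rising slope. With slide as a fixed block the MyD88-KO means became -0.26, -0.06 and 0.13 and no TRIF-KO or MyD88-KO mean was called. With the dye term none of the 9 means was called, and all were between 0.18 and 0.45. On A_55_P2004333 the ratio was 0.11, 0.22, 0.55, 0.85 and 1.01 in wild-type cells. It was 0.14, 0.53, 0.66, 0.72 and 1.04 in TRIF-KO cells and 0.2, 0.02, 0.44, 0.71 and 0.77 in MyD88-KO cells. In double-KO cells it was 0.41, 0.32, 0.32, 0.25 and 0.27. The values climbed with time in the 3 genotypes with an adapter, apart from the turned array, and in double-KO cells the 1 h value was the highest. The slope was 0.21 per doubling of time (SE 0.02, limma adjusted p 1.24e-05), and 0.24 above that of double-KO cells (SE 0.04, adjusted p 0.0177), the 1 ribosomal protein probe called in that comparison. That second call was lost without double-KO at 1, 8 or 16 h, where the value was 0.23 to 0.26, with median centring, where it was 0.5, and under the fixed slide block, where it was 0.24 (adjusted p from 0.00808 to 0.686 over its alternatives). The mean difference from double-KO passed the test for none of the 3 probes (0.34, 0.23 and 0.26 in wild-type). The Rpl24 probes, with 1 of Rpl23 and 1 of Rps27, were also the 5 above 0 on all 19 arrays with LPS in Cy5, and 4 of the 5 were below 0 on the turned array. A_55_P2004333, at 0.02 there, was the exception.

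Rpl39l had the steepest positive slope of the 178 probes. Its ratios were -0.13, 0.66, 0.97, 0.94 and 0.98 in wild-type, -0.25, 0.57, 0.82, 1.53 and 1.7 in TRIF-KO and 0.18, 0.01, 0.65, 1.34 and 1.72 in MyD88-KO cells. The double-KO values were 0.1, 0.49, 0.8, 0.56 and 0.38. The gain was largest at 8 and 16 h in TRIF-KO and MyD88-KO cells and levelled from 4 h in wild-type cells. The means were 0.68 (SE 0.16, limma adjusted p 0.00501), 0.87 (SE 0.16, adjusted p 0.00153) and 0.78 (SE 0.16, adjusted p 0.00292), and the slope was 0.39 (SE 0.05, adjusted p 6.43e-05). No difference in mean ratio from double-KO cells passed the test. With slide as a fixed block the MyD88-KO mean became -0.15, and with the dye term none of the 3 means was called (0.27, 0.46 and 0.53). Rpl3l, the muscle paralog of Rpl3, was well above background in few untreated samples (1 of 5 wild-type, 1 of 5 TRIF-KO, 0 of 4 MyD88-KO and 3 of 5 double-KO arrays), so its ratio near 0 is no measure of a response.

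In wild-type cells Rpl22 and Rps27a were called on their dim probe and not on their bright one. The dim Rpl22 probe had -0.11, -0.14, -0.52, -1.84 and -0.94 in wild-type, 0.14, -0.12, -0.42, -1.83 and -0.73 in TRIF-KO and -0.01, -0.06, -0.08, -1.35 and -1.54 in MyD88-KO cells. In double-KO cells it stayed at -0.06, -0.15, -0.18, -0.18 and -0.01. The fall was deepest at 8 h, except in MyD88-KO cells, where 16 h was lower. The means were -0.71 (SE 0.18, limma adjusted p 0.00665), -0.59 (adjusted p 0.0211) and -0.61 (adjusted p 0.0155), and the slope was -0.37 (SE 0.07, adjusted p 0.00266). The bright Rpl22 probe had -0.05, 0.61, -0.11, -0.29 and -0.23 in wild-type cells and a mean of -0.02 (adjusted p 0.919). The dim Rps27a probe had 0.19, 1.3, 1.45, 0.44 and -0.13 in wild-type, 0.45, 1.35, 0.91, 1.27 and 0.53 in TRIF-KO and 0.06, 0.98, 1.82, 1.54 and 1.01 in MyD88-KO cells, against 0.01, -0.04, -0.15, 0 and -0.09 in double-KO cells. The wild-type values were highest at 2 and 4 h and back below 0 at 16 h, while those of TRIF-KO and MyD88-KO cells were still at 0.53 and 1.01. Its means were 0.65, 0.9 and 1.08 (adjusted p 0.0125, 0.00254 and 0.00107), and it exceeded double-KO by 0.95 in TRIF-KO (SE 0.26, adjusted p 0.0402) and 1.14 in MyD88-KO cells (SE 0.26, adjusted p 0.0219). Without the time block the adjusted p was 0.194 and 0.114, and the calls were lost in 16 and 9 of 32 alternatives. The TRIF-KO call was lost without any 1 of its own arrays (0.89 to 1.07), and the MyD88-KO call without its array at 4, 8 or 16 h or the double-KO array at 4 or 8 h (0.98 to 1.1). This probe was not well above background on any double-KO array in either channel, and above it in 3 of 5 untreated and 4 of 5 LPS-treated wild-type samples, so the difference is not a measured fold. The bright Rps27a probe A_55_P1976108 was at -0.04, 0.05, -0.18 and 0.21 in wild-type cells, with the 2 h spot left out as an outlier. It was higher in TRIF-KO (0.45), MyD88-KO (0.25) and double-KO cells (0.47), and its wild-type ratio lay under the double-KO one (-0.48, adjusted p 0.0227).

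**Figure D4:**
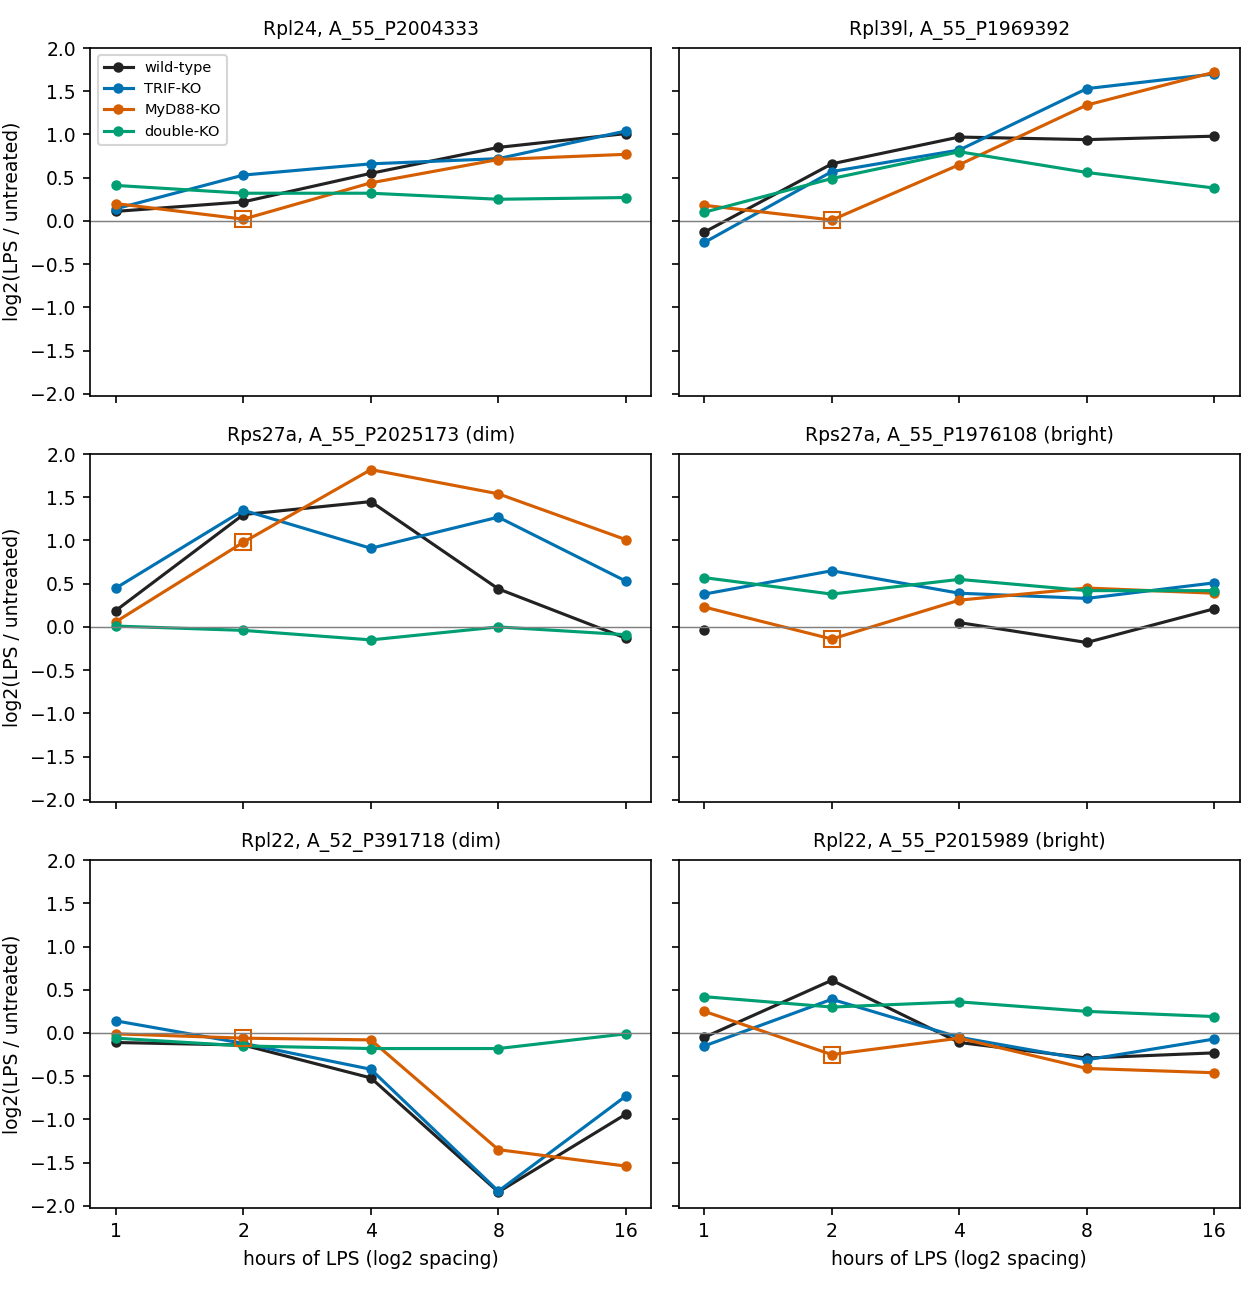
Log2 ratio of LPS over untreated (vertical axis) against hours of LPS on a log2-spaced axis for 6 probes, 1 line per genotype and 1 array per point; squares mark the array with LPS in Cy3, and lines break where a spot was left out. Rpl24 and Rpl39l climb in the 3 genotypes with an adapter, the dim Rpl22 probe falls to -1.84 at 8 h in wild-type cells and the dim Rps27a probe peaks at 1.82 at 4 h in MyD88-KO cells, while the bright probes of both genes stay within 0.65 of 0.

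Genes of known special role were examined in every comparison. In the stalk, through which elongation factors are recruited, Rplp0 was higher on 1 of 3 probes in wild-type (A_55_P2135098, 0.24) and TRIF-KO cells (0.22), and both values turned negative with the dye term. The Rplp1 ratio was lower in wild-type cells than without adapters (-0.42), and Rplp2 passed no test. Rpl5 and Rpl11, which with 5S RNA bind Mdm2, had mean ratios of -0.18 to 0.2 in the 3 genotypes with an adapter, but all 3 Rpl11 probes had a lower slope (-0.14, -0.11 and -0.11) and 2 of them fell short of the double-KO ratio in MyD88-KO cells (-0.42 and -0.36). Rps3, known also as a partner of NF-kB, was lower in wild-type cells on all 3 probes (-0.22, -0.31 and -0.17), of which the bright probes turned to 0.18 and 0.25 with median centring. Rps4x was lower in wild-type cells on 1 of 2 probes (A_55_P1960764, -0.33, adjusted p 0.00491), which became 0.11 with median centring, and had lower slopes on both (-0.14 and -0.13). Rps6 was higher in TRIF-KO cells on all 3 probes (0.24, 0.23 and 0.28), but with the dye term the means were 0.19, -0.05 and 0.28, none called. Rpl13a, known from the translational silencing complex of myeloid cells, was lower on 1 dim probe in wild-type (-0.22) and on the other in MyD88-KO cells (-0.21), while its bright probe passed no test.

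Rpl23 and Rpl14 each gave unequal values on their probes. In wild-type cells Rpl23 was higher on A_55_P2029344 (0.52, 0.62, 0.3, 0.28 and 0.14, mean 0.37, limma adjusted p 0.0101) and lower on its dim probe A_51_P108190 (0, -0.13, -0.02, -0.82 and -0.51, mean -0.3, adjusted p 0.0223). With the dye term the first mean became -0.08 and the second -0.12, neither called. The first probe was above 0 on all 19 arrays with LPS in Cy5 and at -0.46 on the turned array. The dim probe lies 433 bases downstream and was printed as 10 spots per array, with an SD between spots of 0.03 to 0.16. The difference between the probes was not tested. The Rpl14 probes that differ by 1 base had wild-type means of 0.38 (A_55_P2070913, adjusted p 0.0453) and 0.24 (A_55_P2137461, adjusted p 0.149), of which the first became -0.11 with the dye term, and the MyD88-KO ratio of the second differed from its double-KO ratio by -0.69 (SE 0.17, adjusted p 0.0298). Their MyD88-KO ratios at 8 and 16 h were -0.35 and -0.31 on the first and -0.68 and -0.68 on the second.

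Untreated double-KO and wild-type cells were compared probe by probe, and bright and dim probes tended to opposite directions. Untreated levels were compared in Cy3 on the 19 arrays that carry them there. Double-KO exceeded wild-type on 18 probes and was lower on 25, where 14.5% of all kept probes were higher and 10.9% lower. The 43 calls together were near the 25.5% of all kept probes called in either direction. The macrophage markers were lower in these double-KO samples, as given above, and their part in the differences was not tested. Wild-type and double-KO arrays shared no slide and no scan day. A difference in untreated level between these genotypes therefore cannot be told apart from one between slides or days. Of 152 bright probes, 4 were higher and 23 lower, with a median of -0.0699. Of 26 dim probes, 14 were higher and 2 lower, with a median of 0.306. In 24 cases a dim probe could be set beside a brighter probe of its gene on the same strand, 17 of them downstream of it by over 100 bases, and in 21 of the 24 the dim probe had the higher difference. All kept probes split at the same level, and such pairs in other genes, are not given here. The opposite directions are therefore not read as particular to ribosomal proteins. The count of 43 calls was 18 without the time block, 9 with slide as a random block and 28 without wild-type or double-KO at 8 h. With median centring in place of the other steps it was 2 and the median -0.283. TRIF-KO differed from wild-type on 1 probe and MyD88-KO on 2, all higher (0.282% and 5.94% of all probes were called higher, 0.268% and 3.61% lower, and 9.55% in either direction for MyD88-KO), with 23 and 21 unadjusted p under 0.05, against 4239 of 28388 and 7809 of 28386 probes tested.

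Of the 26 dim probes, 22 had a positive difference. The dim Rpl13a probe A_55_P2101910 was at 13.86, 13.82, 13.88, 13.74 and 13.24 in wild-type and 14.47, 14.23, 14.34, 14.44 and 14.04 in double-KO cells, with no overlap (difference 0.6, SE 0.09, limma adjusted p 0.000301). The bright Rpl13a probe, 324 bases upstream, had a difference of -0.15. The dim Rpl27a (0.56), Rpl14 (0.56) and Rpl39 (0.68) probes were higher likewise, with differences of -0.21, -0.16 and 0.31 on their bright probes. Rps23 led the bright probes in the other direction, at 18.24, 18.02, 18.14, 18.27 and 18.08 in wild-type and 17.67, 17.75, 17.74, 17.87 and 17.7 in double-KO cells (-0.41, SE 0.08, adjusted p 0.0013). Rpl10 (-0.36) and Rps27 (-0.32) were lower too. The same genes Rpl10 and Rps23 had higher LPS ratios in double-KO cells, and as a ratio holds the untreated level as its divisor, both values share a measurement.

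Rpl39l and the dim Rps6 probe were the exceptions among dim probes. Untreated Rpl39l was at 8.83, 8.61, 8.34, 9.03 and 8.83 in wild-type and 7.64, 7.59, 7.33, 7.13 and 7.43 in double-KO cells (-1.31, SE 0.11, limma adjusted p 1.27e-06), and well above background on 4 of the 5 double-KO arrays. It was at 9.28, 9.24, 9.2, 9.3 and 9.38 in TRIF-KO cells (0.55, adjusted p 0.0401) and at 9.53, 9.46, 9.37 and 9.67 in MyD88-KO cells in Cy3 (0.78, adjusted p 0.00164). In order of level, double-KO was lowest, then wild-type, TRIF-KO and MyD88-KO. Neighbours did not overlap, except that TRIF-KO at 16 h lay above MyD88-KO at 8 h by 9.38 to 9.37, and the difference of those 2 groups was not tested. The TRIF-KO difference passed the test in 10 of its 27 alternatives. The dim Rps6 probe was at 13.31, 13.04, 12.7, 12.72 and 12.46 in wild-type and 11.99, 11.96, 11.74, 11.6 and 11.35 in double-KO cells (-1.12, SE 0.10, adjusted p 2.21e-06). Its bright partner differed by -0.03, and TRIF-KO and MyD88-KO cells differed from wild-type by 0.01 and -0.05 on the dim probe. Both double-KO differences passed the test in every alternative run, 27 and 26. A fixed slide block and scan day were not among these alternatives, so they do not separate genotype from slide or day.

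**Figure D5:**
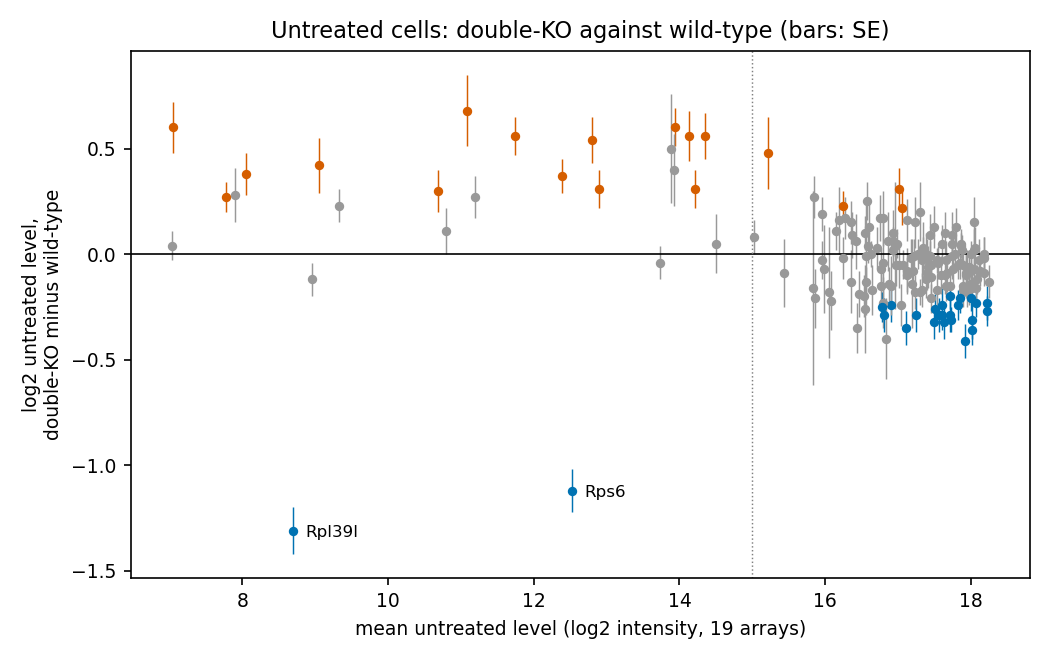
Difference in untreated log2 level between double-KO and wild-type cells (vertical axis, bars are SE from the limma fit) against the mean untreated log2 intensity over 19 arrays (horizontal axis) for 178 ribosomal protein probes; orange and blue mark higher and lower calls, grey no call, and the dotted line the level of 15. Left of the line 14 of 26 probes are higher, right of it 23 of 152 are lower, and Rpl39l (-1.31) and Rps6 (-1.12) lie far below the rest.

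Untreated cells changed as well while they stood in serum-free medium. The slope of the untreated level over log2 time was lower for 53 probes and higher for 6 (16.4% and 15.1% of all kept probes), with a median of -0.0283 per doubling against -0.0102 for other probes of the same brightness. The share was 15 of 26 among dim and 38 of 152 among bright probes, a split that is not given for all kept probes. The dim Rps6 probe (-0.18, SE 0.03, limma adjusted p 4.89e-05) and Rpl29 (A_55_P2061045, -0.18, adjusted p 0.000296) declined, the latter from 16.36 at 1 h to 15.85 at 16 h in wild-type and from 16.55 to 15.55 in TRIF-KO cells. All 3 Rps6 probes, both Rps2 probes and 5 Rpl17 probes were lower. Rpl30 had 1 probe called in each direction. The 59 calls of the 178 probes together were near the 31.6% of all kept probes called in either direction. With 1 probe per gene 19 of 78 genes were called, below that share of the main fit. With median centring the median was 0.0888.

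Other genes of the translation machinery were read from fixed lists. Of all kept probes, 17% were higher and 19.3% lower in wild-type, 13% and 15.9% in TRIF-KO and 17.1% and 18.9% in MyD88-KO cells. Of 100 mitochondrial ribosomal probes, 48 were lower and 4 higher in wild-type cells (median -0.249), with Mrpl28 at -0.69 and Mrps6 at -0.7 against Mrpl52 at 1.14. Of 82 ribosome biogenesis probes, 29 were higher and 5 lower in TRIF-KO but 6 higher and 25 lower in MyD88-KO cells (medians 0.292 and -0.224), a difference between the genotypes that was not tested. Rrs1, which assembles the large subunit, was higher in all 3 (1.41, 1.95 and 1.05). Of 60 initiation factor probes, 20 were higher and 9 lower in wild-type cells, Eif4e, the cap-binding protein, at 1.01. Of 22 elongation factor probes 5 were higher (22.7%) and 3 lower (13.6%), near the shares of all probes, and Eef2k, the kinase that halts elongation, had means of -0.61 (wild-type) and -0.91 (MyD88-KO) on A_51_P461504. Of 12 probes for ribosomal proteins named outside the rule, 1 was higher and 2 lower (8.33% and 16.7%), no more than the shares of all probes, with Rps27l at -0.49 and Rpsa at -0.44. Of 29 probes of mTORC1 and TOP control, 9 were higher and 5 lower, with Sesn1, an inhibitor of mTORC1, at -1.66.

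The letters around the start of these genes were read from RefSeq promoters of GRCm38.p6, which held 69 promoters for 58 of the genes. They are shown because a TOP element begins with C and pyrimidines. In the 30 bases around the annotated start, 15 before and 15 after it, 4 motifs were searched. CTTTT stood on the gene's strand in 6 promoters, CTTTC in 17 promoters (24.6%, against 4.05% of all), CTTCC in 13 promoters and CTTCT in 7 promoters. Any of them stood in 33 of 69 (47.8%) and in 16.2% of all 32851 promoters, and on either strand in 58% and 31.6%. These motifs can overlap each other. Rps26, the lowest in wild-type minus double-KO, Rps6 and Rpl39l held a match (capitals), and Rpl24 held none in this window. The Rpl39l match lies before the annotated start. Among genes not printed, Rps2 held a match and Rplp0 none, and Rpl22 held it at chr4:152324421-152324450 but not at chr4:152325711-152325740.
Rps26, chr10:128626492-128626521, minus strand: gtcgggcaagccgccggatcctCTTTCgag
Rps6, chr4:86857353-86857382, minus strand: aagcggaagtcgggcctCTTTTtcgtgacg
Rpl39l, chr16:10170213-10170242, plus strand: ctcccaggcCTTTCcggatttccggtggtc
Rpl24, chr16:55966260-55966289, plus strand: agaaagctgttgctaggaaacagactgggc
A polyadenylation hexamer, AATAAA or ATTAAA on the probe's strand, stood in 64 of the 178 ribosomal protein probes (36%) against 17.9% of all kept probes. The share was 36.8% of bright and 30.8% of dim probes.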

How the data were processed

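Cy5 and Cy3 intensities were used as the authors deposited them in scanner text files, written by Agilent Feature Extraction 10.10.1.1 per the file headers. A table of processed values, also deposited, holds a log10 ratio that equals the scanner's own within rounding, and it served as an alternative. Background was corrected by normexp (offset 50), ratios were normalized by loess within each array, outlier spots were left out, saturated spots were kept, spots of a probe were averaged and the swapped array was turned. Untreated levels are Cy3 intensities of 19 arrays after loess and quantile normalization of average intensities, so MyD88-KO has n = 4. Comparisons were fitted by limma 3.58.1 in R 4.3.3 on the log2 scale over all 20 arrays, with Benjamini-Hochberg adjustment over all kept probes. The number of arrays limits the precision.

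The time point was a block. Time points pair the samples as the labels give them, and deviations of samples of the same time correlated at 0.74 to 0.83 between wild-type and TRIF-KO arrays but at -0.2 to 0.14 between double-KO and the other arrays.

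The members and lists were chosen with earlier results of these data known. Named were the stalk proteins, Rps6, Rpl13a, Rps3, Rpl5, Rpl11, Rps4x, the tissue-restricted paralogs, up to 6 probes per direction among those called with 1 sign at 4 of 5 times, genes with probes called in both directions, and up to 3 genes per list. Probes named beside these as partners were chosen after their values were seen. A few of the probes that this rule names are not reported here.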

Additional observations from a re-analysis of the deposited data

Results flagged for a closer look

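Of 101 groups of 4 or 5 samples examined, 8 held a sample far from the others. For independent replicates chance alone gives about 1 in 20. The samples of a group are its time points and the probes share arrays, so that rate is no exact measure and a sample far off may be a change with time. The median untreated log2 level of the ribosomal protein probes was 16.9 at 16 h in TRIF-KO cells, with the next sample at 17.19, and 17.03 at 16 h in double-KO cells, with the next at 17.18. Among the named probes, Rpl36a A_55_P2019019 had a ratio of 0.1 at 2 h in wild-type cells where the next was -0.45. Rpl39l had -0.13 at 1 h in wild-type cells, and the next was 0.66. Rpl24 A_55_P2059556 had 0.11 at 1 h in TRIF-KO cells, with 0.47 as the next. Rpl24 A_55_P1956938 had -0.29 at 2 h in MyD88-KO cells, the array with LPS in Cy3, and the next was 0.52. In untreated levels, Rpl13a A_55_P2101910 was at 13.24 at 16 h in wild-type cells (next 13.74), and Rpl27a A_51_P132459 at 14.39 at 16 h in double-KO cells (next 14.83).

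The response to LPS differed between genotypes by the limma test of the difference for 16 named results. Wild-type minus double-KO gave -0.53 for Rpl10, -0.54 for Rpl12, -0.51 for Rpl31, -0.66 for Rpl39, -0.51 for Rps23 and -0.67 for Rps26. TRIF-KO minus double-KO gave -0.39 for Rpl41 and 0.95 for the dim Rps27a probe. MyD88-KO minus double-KO gave -0.51 for Rpl10, -0.49 for Rpl12, -0.49 for Rpl13, -0.69 for Rpl14, -0.49 for Rpl22, -0.46 for Rpl32 and 1.14 for the dim Rps27a probe. The slope of Rpl24 A_55_P2004333 exceeded that of double-KO cells by 0.24. These differences share the 5 double-KO arrays.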

How the results depend on the processing

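Counts of called ribosomal protein probes moved by over 1.5 times in many of the 15 settings, while the median difference from double-KO stayed below 0 in all 13 alternatives of each of the 3 comparisons. Counts are given in the order of the settings named, and the cause of a change was not tested unless the construction shows it. With 1 probe per gene, 78 probes were tested, which alone lowers a count.

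In wild-type cells 54 calls became 10 with scaling of ratios between arrays, 14 with 1 probe per gene, 35 with no replicate block, 0 with a dye term and 21 with slide as a random block. In TRIF-KO cells 37 became 15 with median centring, 9 with scaling, 24 with the scanner's ratio, 16 with 1 probe per gene, and 0 with a dye term or the fixed slide block. In MyD88-KO cells 31 became 9 with median centring, 5 with scaling, 10 with 1 probe per gene, 1 with a dye term, 14 with slide as a random block, and 0 with slide or scan day as a fixed block. In double-KO cells 5 became 16 without background correction, 8 with median centring, 96 with scaling, 1 with the scanner's ratio, 9 with no replicate block, and 0 with saturated spots missing, a dye term, either slide block or scan day.

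Against double-KO, the 36 wild-type calls became 0 with median centring, either slide block or the 2 groups alone, 19 with the scanner's ratio, 17 with 1 probe per gene, 10 with no replicate block and 9 with scan day. The 2 TRIF-KO calls became 5 without background correction, 32 with scaling, 1 with no filter or 1 probe per gene, and 0 with median centring, no replicate block, either slide block or the 2 groups alone. The 15 MyD88-KO calls became 1 with median centring, 47 with scaling, 4 with the scanner's ratio, 9 with a dye term, 31 with scan day, and 0 with no replicate block, either slide block or the 2 groups alone. The 49 slope calls became 4 with median centring, 7 with scaling, 29 with the scanner's ratio, 20 with 1 probe per gene and 5 with the fixed slide block. The 1 call of the slope against double-KO became 2 without background correction, 20 with scaling, and 0 with median centring, 1 probe per gene or the fixed slide block. In untreated cells, the 43 double-KO calls became 2 with median centring, 18 with 1 probe per gene, 18 with no replicate block and 9 with slide as a random block. The 1 TRIF-KO call became 0 with median centring, no replicate block or slide as a random block. The 2 MyD88-KO calls became 0 with median centring and 1 with 1 probe per gene, no replicate block or slide as a random block. The 59 calls of the untreated slope became 19 with 1 probe per gene.

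Leaving out each array in turn gave 23 to 59 calls in wild-type, 18 to 42 in TRIF-KO, 5 to 50 in MyD88-KO and 0 to 28 in double-KO cells. Against double-KO it gave 6 to 42 for wild-type, 0 to 10 for TRIF-KO and 0 to 40 for MyD88-KO, 38 to 59 for the slope and 0 to 2 for its difference. Untreated counts ran from 28 to 46, 0 to 1 and 1 to 15 for double-KO, TRIF-KO and MyD88-KO, and from 42 to 63 for the slope.

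Of the named results, 137 of 416 were called, and 23 alternatives turned the sign of one, none of them with a call. With median centring, wild-type means became 0.01 for Rpl36a A_55_P2019019, 0.18 for Rps3 A_51_P318640, 0.25 for Rps3 A_55_P2109222 and 0.11 for Rps4x A_55_P1960764, and the Rplp0 A_66_P105288 slope 0.03. With a dye term, wild-type means became -0.11 for Rpl14 A_55_P2070913, -0.08 for Rpl23 A_55_P2029344 and -0.04 for Rplp0 A_55_P2135098, and TRIF-KO means -0.14 for that Rpl23 probe, -0.06 for that Rplp0 probe and -0.05 for Rps6 A_55_P1963817. With slide as a fixed block, MyD88-KO means became -0.26 for Rpl24 A_55_P1956938, -0.06 for Rpl24 A_55_P2004333 and -0.15 for Rpl39l, double-KO means -0.01 for Rps27 A_55_P2163622, -0.09 for Rps27a A_55_P1976108 and -0.06 for Rps28 A_55_P2027640, and the MyD88-KO difference from double-KO 0.01 for Rpl32 and Rpl11 A_55_P2139673. With scan day, the MyD88-KO mean became 0 for Rps3 A_51_P318640. With untreated median centring, untreated slopes became 0.04 for Rpl30 A_55_P2104941 and 0.08 for Rps6 A_55_P1963817. Probes near background, such as Rpl3l and the dim Rps27a probe, allow no fold.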
